A study of Mus musculus with 3 samples.

Results

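The interferon regulatory factors are transcription factors that share a DNA-binding domain, and 8 of them were examined in macrophages, namely Irf1, Irf2, Irf3, Irf4, Irf5, Irf7, Irf8 and Irf9. They were found by gene symbol among the gene probes of the arrays, which gave 16 probes of 56605, 2 for each gene, and 8 genes of 26672. The cells were RAW 264.7, an established mouse macrophage line, so that all conditions came from a single line. In the first condition the cells received no lactobacilli and then 50 ng/mL of lipopolysaccharide (LPS), the cell wall component of Gram-negative bacteria that toll-like receptor 4 (TLR4) detects. In the other conditions they were first exposed for 24 h to 50000000 cells/mL of *Lacticaseibacillus rhamnosus* CRL1505 or *Lactiplantibacillus plantarum* CRL1506, were washed, and then received the same LPS. The LPS time is given as 12 h in the design and as 3 h in the sample descriptions. Every condition included LPS, and arrays of cells without LPS are not used here. The values therefore compare LPS-treated cells with and without each strain and do not describe the LPS response itself. With no array of lactobacilli without LPS, a direct effect of the bacteria and a changed response to LPS cannot be told apart.

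There was 1 array for each of the 3 conditions. No difference below has a replicate check or a p-value. A single slide, scanned on 1 day, carried both the LPS array and that of CRL1506 + LPS. CRL1505 + LPS was hybridised on a different slide and scanned on a different day, so the CRL1505 strain and its slide cannot be told apart, whereas the CRL1506 ratios to LPS are within 1 slide. Between 48.5% (CRL1505 + LPS) and 55.3% (CRL1506 + LPS) of gene spots passed the scanner software's limit for a signal well above background. Of the Irf probes, 14 of 16 passed it on the 3 arrays, which left 7 of 8 genes to compare. All 6 macrophage markers (Adgre1, Cd68, Csf1r, Lyz2, Itgam and Cd14) were well above background on the 3 arrays, with a summed level of 686, 637 and 551 times the 75th percentile of the array, in the order LPS, CRL1505 + LPS, CRL1506 + LPS. Among them Adgre1 was 4.83-fold higher and Csf1r 2.77-fold lower with CRL1505 than with LPS alone, and with CRL1506 Adgre1 was 2.0-fold higher and Csf1r 1.83-fold lower. The part of these marker shifts in the Irf values was not tested. Of 14 markers of lymphocytes, natural killer cells, granulocytes, dendritic cells, epithelium and fibroblasts, 8, 5 and 9 were well above background, with a summed level of 3.32, 2.97 and 3.60. The B cell gene Cd79a, the epithelial Cdh1 and the fibroblast Col3a1 stayed below that limit on the 3 arrays, whereas the B cell gene Ms4a1 passed it on the 3 arrays, the epithelial Epcam with LPS and CRL1506 + LPS, and the fibroblast Col1a1 with CRL1506 + LPS. Cd3d, Cd3e, Elane and Zbtb46 also passed it on the 3 arrays. Against LPS, Epcam was at least 3.81-fold lower with CRL1505 and 2.63-fold lower with CRL1506, and Col1a1 was at least 3.60-fold higher with CRL1506. The granulocyte gene Mpo, dim at -3.85 on the log2 scale with LPS and -2.86 with CRL1506 + LPS, was 1.99-fold higher with CRL1506. The brighter granulocyte gene Elane was 1.23-fold lower with CRL1505 and 1.18-fold lower with CRL1506. RNA came from whole cultures, so fewer cells with a transcript and less of it per cell cannot be told apart.

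Interferon regulatory factors link the detection of microbes to interferon. Downstream of TLR4 the adapter TRIF and the kinase TBK1 phosphorylate Irf3, which enters the nucleus and switches on the interferon-β gene. The secreted interferon acts on the same and neighbouring cells through a complex that contains Irf9 and binds to the interferon-stimulated response element (ISRE), and this raises Irf7, which in turn widens interferon production. Irf1 and Irf2 compete for similar sites, with Irf1 mostly activating and Irf2 mostly restraining, whereas Irf5 acts downstream of MyD88 on inflammatory cytokines, Irf8 sets the identity of mononuclear phagocytes together with PU.1, and Irf4 is linked to B cells and to alternatively activated macrophages.

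The results turn on Irf2, Irf5 and Irf7, and for each of them the 2 probes sit at different places in the gene. The first 30 of the 60 bases of each probe are shown to identify which stretch of the transcript was read. The positions are on mm9, the build of the array files, and which exon holds a probe was not analysed here.
Irf2 brighter probe, chr8:47932486-47932545, plus strand: atattatgcaaattcccagatctgaagacg
Irf2 dimmer probe, chr8:47893357-47893416, plus strand: ccagacaccagcttgtatctaagactgtga
Irf5 brighter probe, chr6:29486901-29486960, plus strand: cagagtcggggtaacaagaacatagaagag
Irf5 dimmer probe, chr6:29491799-29491858, plus strand: agaggtttctgattgtgggacacagtctgg
Irf7 brighter probe, chr7:148449104-148449163, minus strand: catcgaacacttcctcatggacctgggtca
Irf7 dimmer probe, chr7:148450664-148451014, minus strand: gcataaggtgtacgaacttagccgggagct
The Irf2 probes lay 39.1 kb apart and the array design assigns them to different transcripts, NM_008391 for the brighter and ENSMUST00000208976 for the dimmer. The Irf5 probes lay 4.90 kb apart, and the dimmer one is assigned to NM_001311083. The dimmer Irf7 probe covers 351 bases of genome with its 60 bases, so it crosses a splice junction.

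On the brighter probes, 2 of 7 genes compared were at least 2-fold higher with CRL1505 than with LPS alone, beside 9.9% of all genes. They were Irf2 and Irf7, and none was at least 2-fold lower, beside 8.41%. The dimmer probes gave 1.57-fold for Irf2, 5.00-fold for Irf7 and 2.63-fold for Irf5. With CRL1506, none passed 2-fold on the brighter probes, beside 5.67% of all genes higher and 3.53% lower. Irf7 had the highest of these ratios at 1.83-fold. On the dimmer probes, Irf2 was 5.39-fold and Irf7 2.17-fold higher with CRL1506. Between the strains, Irf2, Irf5 and Irf7 were at least 2-fold higher with CRL1505 on their brighter probes, beside 8.96% of all genes. The log2 ratio of Irf2 was -1.78 on its dimmer probe and 0.25 as the mean over its probes. Irf7 passed 2-fold in 1 of 7 other scalings. Irf1, Irf3, Irf8 and Irf9 stayed within 2-fold in the 3 comparisons (under the shift by the median, Irf1 and Irf9 were at 1.15 and 1.08 between the strains), and Irf4 stayed below the detection limit. Values are log2 of the signal minus the log2 of the array's 75th percentile, a gene is represented by its brighter probe, and the comparisons with LPS share the LPS array.

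**Figure D1:**
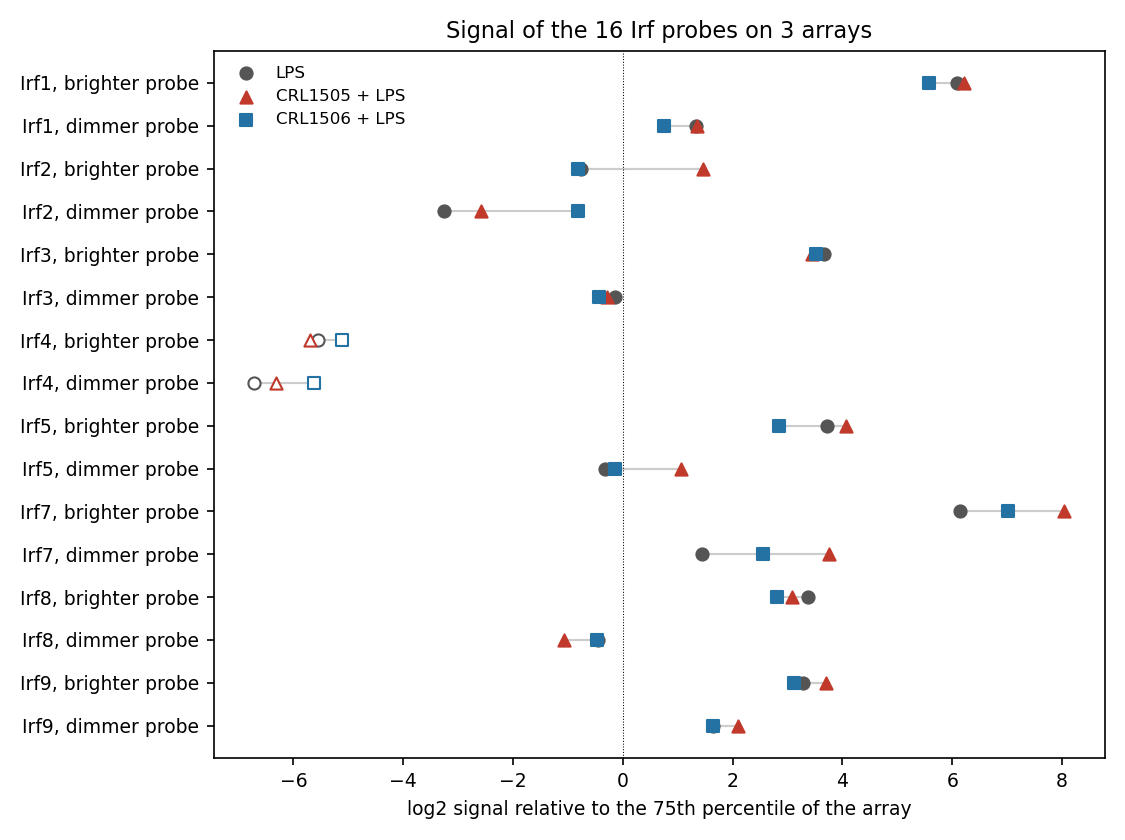
Log2 signal of the 16 probes relative to the 75th percentile of each array (x axis), with 1 row for each probe and 1 marker for each array: circles for LPS, triangles for CRL1505 + LPS and squares for CRL1506 + LPS. Filled markers were well above background and open markers were not, and each row is read on its own because different probes cannot be compared in level. Irf7 was highest with CRL1505 on both probes, the Irf2 probes differed in which array was highest, and the Irf4 markers are open on the 3 arrays.

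Irf7 is the factor that interferon itself raises and that extends the response to further interferon genes. Its brighter probe had a signal of 52513 with LPS, 136312 with CRL1505 + LPS and 90165 with CRL1506 + LPS, which is 6.14, 8.04 and 7.01 on the log2 scale. The CRL1505 array was highest and the LPS array lowest. The ratio to LPS was 3.73-fold for CRL1505 (log2 ratio 1.90) and 1.83-fold for CRL1506 (0.87), and CRL1505 was 2.04-fold above CRL1506 (1.03). The dimmer probe read 1.44, 3.76 and 2.55 and had the same order, with ratios of 5.00-fold (2.32), 2.17-fold (1.11) and 2.31-fold (1.21). So Irf7 with CRL1506 was under 2-fold on its brighter probe and over it on the other. The SD between these probes was 0.30 for CRL1505 against LPS and 0.17 for CRL1506 against LPS, beside a median of 0.23 and 0.22 over all genes with several probes.

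The Irf7 ratio for CRL1505 ranged from 1.39 to 2.20 over 7 other scalings of the arrays, all past 2-fold. For CRL1506 it ranged from 0.67 to 1.05 and passed 2-fold in 3 of the 7. For CRL1505 against CRL1506 it ranged from 0.63 to 1.53 and passed 2-fold in 1 of the 7, the shift by the median. Of 15585 genes compared for CRL1505 and LPS, 519 had a higher ratio than Irf7, and of 16271 for CRL1506 and LPS, 1147 had one.

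Irf2, which occupies interferon response sites and mostly limits their activation, had the largest CRL1505 ratio of the 7 genes compared on its brighter probe. The signal of that probe was 437 with LPS, 1418 with CRL1505 + LPS and 397 with CRL1506 + LPS, or -0.76, 1.46 and -0.81 on the log2 scale. The CRL1505 array stood apart, and the LPS and CRL1506 arrays were within 0.05 of each other. CRL1505 was 4.66-fold above LPS (log2 ratio 2.22) and 4.83-fold above CRL1506 (2.27), and 366 of 15585 genes had a higher ratio to LPS. Over the 7 other scalings these ratios ranged from 1.71 to 2.52 and from 1.87 to 2.77.

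The dimmer Irf2 probe gave another picture. Its signal was 78.3 with LPS, 85.7 with CRL1505 + LPS and 396 with CRL1506 + LPS, all well above background, or -3.25, -2.59 and -0.82 on the log2 scale. Here the CRL1506 array stood apart and the other two were low. The ratio to LPS was 5.39-fold for CRL1506 (2.43, with a range of 1.65 to 2.52 over the scalings) and 1.57-fold for CRL1505 (0.65), and the ratio of CRL1505 to CRL1506 was -1.78, opposite to that of the brighter probe.

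The SD between the Irf2 probes was 1.11 for CRL1505 against LPS, 1.75 for CRL1506 against LPS and 2.86 for CRL1505 against CRL1506. The share of multi-probe genes with a larger SD was 2.47% of 5514, 0.358% of 6147 and 0.036% of 5558. Neither probe had an outlier spot or an uneven one (mean over median pixel signal above 0.2 on the log2 scale), and at most 1 of the 20 nearest spots of the brighter probe was uneven. The Irf2 result for CRL1505 therefore holds for the stretch read by the brighter probe and not for the gene as a whole, and whether the probes report different transcripts was not tested.

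**Figure D2:**
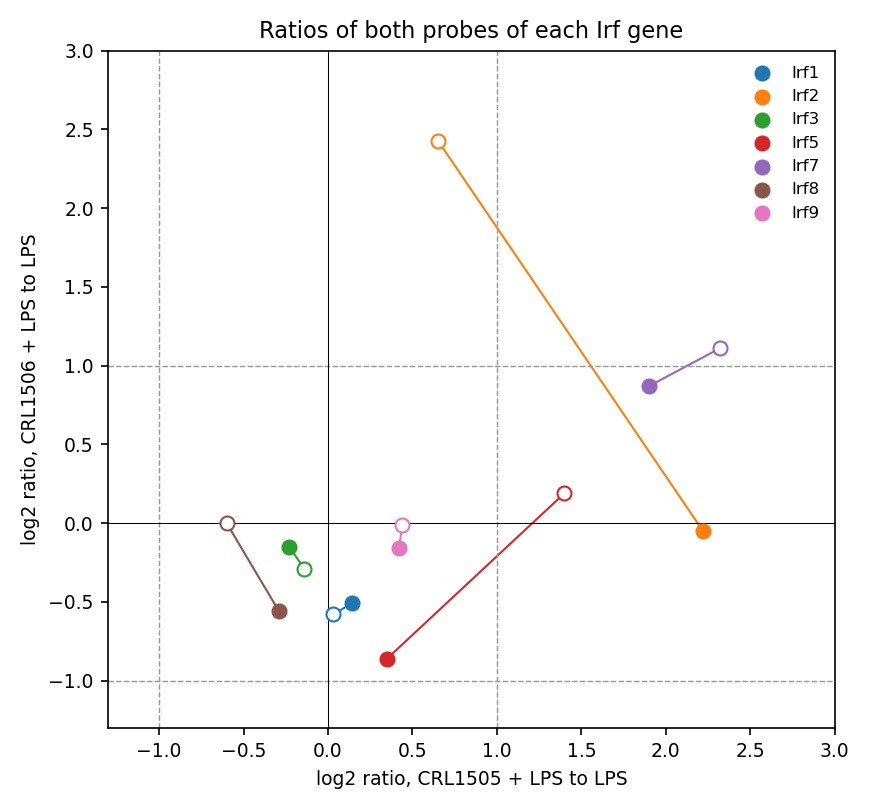
Log2 ratio of CRL1505 + LPS to LPS (x axis) against that of CRL1506 + LPS to LPS (y axis) for both probes of 7 genes, joined by a line. Filled circles are the brighter probes and open circles the dimmer ones, and dashed lines mark 2-fold. The Irf7 probes lie close together at 1.90 and 0.87 and at 2.32 and 1.11, whereas the Irf2 probes lie far apart at 2.22 and -0.05 and at 0.65 and 2.43. Both axes share the LPS array.

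Irf5, an activator of inflammatory cytokine genes downstream of TLR adapters, differed between the strains. Its brighter probe had a signal of 9705 with LPS, 8610 with CRL1505 + LPS and 5025 with CRL1506 + LPS, or 3.71, 4.06 and 2.85 on the log2 scale. After scaling the CRL1505 array was highest and the CRL1506 array lowest. CRL1505 was 2.31-fold above CRL1506 (log2 ratio 1.21, range over the scalings 0.81 to 1.71, past 2-fold in 5 of 7). CRL1506 was 1.81-fold below LPS (-0.86) and passed 2-fold in 1 of the 7 scalings (-1.06, the shift by the median). The CRL1505 ratio to LPS was 0.35 and changed sign under spike-in scaling (-0.16).

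The dimmer Irf5 probe read -0.33, 1.06 and -0.14. It gave the same ratio between the strains, 1.21, but placed the LPS array near CRL1506, with a ratio to LPS of 1.40 for CRL1505 and 0.19 for CRL1506. The Irf5 probes therefore shared the difference between the strains (SD between probes 0.00) and disagreed on where LPS alone lay (SD 0.74 for CRL1505 and for CRL1506). Of 16271 genes, 15516 had a higher CRL1506 ratio to LPS than the brighter Irf5 probe.

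Irf1, an early activator of antigen presentation and nitric oxide genes, was bright on the 3 arrays and stayed within 2-fold of LPS with each strain. Its brighter probe, chr11:53590746-53590805 on mm9, read 6.08 with LPS, 6.22 with CRL1505 + LPS and 5.57 with CRL1506 + LPS. The ratio to LPS was 0.14 for CRL1505, which turned to -0.37 under spike-in scaling, and -0.51 for CRL1506. The CRL1506 array was the lowest on both probes, with -0.58 on the dimmer one, and CRL1505 was 1.57-fold above CRL1506 (0.65). Of 16271 genes, 14410 had a higher CRL1506 ratio to LPS than the brighter Irf1 probe. Of the 20 spots nearest to the brighter Irf1 probe, 5, 2 and 3 were uneven on the LPS, CRL1505 + LPS and CRL1506 + LPS arrays, and none of those nearest to the dimmer probe was. Their part in the Irf1 values was not tested.

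Irf9, the DNA-binding part of the complex that carries the type I interferon signal, read 3.28, 3.70 and 3.12 on its brighter probe, chr14:56228806-56228865. CRL1505 was 1.34-fold above LPS (0.42, but -0.08 under spike-in scaling) and CRL1506 was 1.12-fold below it (-0.16). The dimmer Irf9 probe gave 0.44 and -0.01, so the probes differed by an SD of 0.02 and 0.10. The order was CRL1505 above both other arrays, with LPS and CRL1506 closer to each other than the usual spread between probes.

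Irf3, the factor that TLR4 signaling activates by phosphorylation rather than by raising its RNA, had the steadiest levels. Its brighter probe, chr7:52257700-52257759, read 3.67, 3.45 and 3.52, and its dimmer probe -0.14, -0.28 and -0.43. The ratios to LPS were -0.23 for CRL1505, which became 0.07 under the shift by the median, and -0.15 for CRL1506. The Irf3 ratio between the strains was -0.08, or 1.05-fold.

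Irf8, which directs monocyte and macrophage development, read 3.37, 3.08 and 2.81 on its brighter probe, chr8:123280324-123280383. LPS alone was highest, and the ratio was -0.29 for CRL1505 (0.01 under the shift by the median) and -0.56 for CRL1506. The dimmer Irf8 probe, assigned to ENSMUST00000162775 and starting 13.3 kb from the other, read -0.46, -1.07 and -0.47, so that on it the CRL1505 array was the lowest and CRL1506 equalled LPS. The Irf8 probes thus disagreed on which strain was lower, and the ratio of CRL1505 to CRL1506 was 0.27 on one and -0.60 on the other.

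Irf4 was not measurable. Its brighter probe had a signal of 15.8 with LPS and 20.1 with CRL1506 + LPS and a lower one with CRL1505 + LPS, and its dimmer probe had 7.1 with LPS, 6.5 with CRL1505 + LPS and 14.1 with CRL1506 + LPS. None was well above background, so no ratio was formed, and a level below this detection limit is not shown to be absent.

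**Figure D3:**
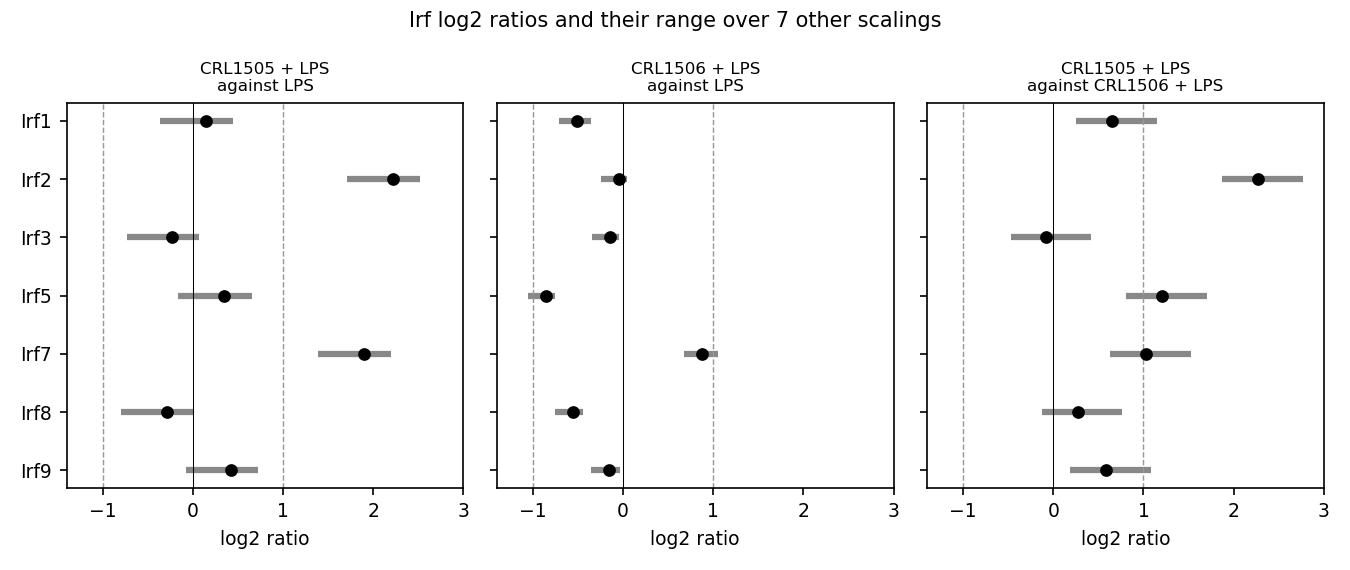
Log2 ratios of the 7 genes compared (points, 75th percentile scaling) with the range over 7 other scalings (grey bars), 1 panel for each comparison. Dashed lines mark 2-fold. The bars of Irf2 and Irf7 stay past 2-fold for CRL1505 + LPS against LPS, where the Irf7 bar runs from 1.39 to 2.20, and those of Irf1, Irf3, Irf5, Irf8 and Irf9 cross 0.

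For CRL1505 against LPS, 2 of 7 genes compared were at least 2-fold higher, beside 9.9% of all 15585 genes compared, and 0 were at least 2-fold lower, beside 8.41%. For CRL1506 against LPS, 0 of 7 were higher, beside 5.67% of 16271 genes, and 0 were lower, beside 3.53%. For CRL1505 against CRL1506, 3 of 7 were higher, beside 8.96% of 15730 genes, and 0 were lower, beside 7.44%. The median log2 ratio of the 7 genes was 0.35, -0.16 and 0.65 in these comparisons, and that of all genes compared, bounds included, was 0.01, -0.06 and 0.03. With 7 genes and no replicate, these counts describe the arrays and were not tested.

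Because a shift of a whole array moves all its genes alike, the Irf genes were also set against Irf3 on the same array. Irf3 had the steadiest levels in these same data, so it is not an independent reference. Setting genes against it does not remove a shift that depends on signal level. Relative to Irf3, the log2 ratio of CRL1505 to LPS was 2.45 for Irf2, 2.13 for Irf7, 0.65 for Irf9, 0.58 for Irf5, 0.37 for Irf1 and -0.06 for Irf8. For CRL1506 it was 1.02 for Irf7, 0.10 for Irf2, 0.00 for Irf9, -0.36 for Irf1, -0.40 for Irf8 and -0.71 for Irf5. These values are for the brighter probes, and the order of Irf2 depends on them: as the mean over probes, Irf2 was at 1.44 with CRL1505 and 1.19 with CRL1506, and Irf3 at -0.19 and -0.22.

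Promoter sequence was searched for the elements through which interferon and TLR signals act, in RefSeq windows of build GRCm38.p6 that run from 250 bases before to 50 bases after each start. All 8 genes had a window, 11 windows in all. The motifs were the ISRE core GAAANNGAA, the STAT site GAS as TTCNNNGAA and the NF-kB site as GGGNNTTCC, each on both strands. Of 32851 windows in the table, 8.56% held the first, 8.30% the second and 5.82% the third. Irf1, Irf2 and Irf8 had a match, and the stretches around the matches are shown on the plus strand, with the matching letters in capitals.
Irf1 GAS, chr11:53769909-53769947: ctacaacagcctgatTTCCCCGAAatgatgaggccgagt
Irf2 ISRE and GAS, chr8:46739495-46739544: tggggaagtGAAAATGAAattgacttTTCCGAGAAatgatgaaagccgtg
Irf2 NF-kB, chr8:46739714-46739744: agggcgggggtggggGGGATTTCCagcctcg
Irf8 GAS at both positions, chr8:120736172-120736228: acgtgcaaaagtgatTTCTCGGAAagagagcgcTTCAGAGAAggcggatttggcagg
In the Irf1 window the match began at -90 from the start. The Irf2 window held all 3 motifs, at -241, -224 and -16, and the Irf8 window held GAS at -171 and -153. No such letters were found in the windows of Irf3, Irf4, Irf5, Irf7 and Irf9, which says only that these 9-letter forms are not in these 300 bases. A match is a string of letters and was not tested as a binding site.

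Of 12 adapters and kinases that activate these factors, 1 was at least 2-fold higher with CRL1505, beside 9.9% of all genes, and 0 with CRL1506, beside 5.67%. The former was Tbk1, the kinase that phosphorylates Irf3, at 2.10-fold (log2 ratio 1.07) with CRL1505 and at -0.17 with CRL1506. Myd88, the adapter upstream of Irf5 and Irf7, was at 0.85 and -0.36. Ticam2, the TRIF-related adapter that bridges TRIF to TLR4, was not well above background with LPS and gave bounds of at least 1.82-fold and 1.61-fold higher. The median of the list was 0.32 with CRL1505 and -0.09 with CRL1506, beside 0.01 and -0.06 over all genes, and under spike-in scaling no gene of it was 2-fold higher with CRL1505.

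Among partners and regulators, 4 of 13 genes compared were at least 2-fold higher with CRL1505 and 0 lower, beside 9.9% and 8.41% of all genes, with a median of 0.19. Batf2, a leucine zipper protein that pairs with Irf1, was at 2.08, Trim21, a ubiquitin ligase that targets interferon regulatory factors, at 1.66, and Stat2, which binds DNA in a complex with Irf9, at 1.56. With CRL1506 these genes were at 0.49, 0.06 and 0.53, the median of the list was 0.06, and the Irf2 co-repressor gene Irf2bp1 was 2.10-fold lower (-1.07), the 1 of 13 that was, beside 3.53% of all genes. The Irf8 partner Spi1, which encodes PU.1, was at -0.38 and -0.76. Spib and Batf did not reach the detection limit.

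Of 8 interferon, receptor and receptor kinase genes compared, 2 were at least 2-fold higher with CRL1505, beside 9.9% of all genes. With CRL1506, 3 were, beside 5.67%. Over the other settings these counts ranged from 2 to 3 and from 2 to 4. Ifnb1, the target of Irf3 and Irf7, read 1.61, 5.08 and 3.93 on the 3 arrays, a ratio to LPS of 11.0-fold (3.46) for CRL1505 and 4.97-fold (2.31) for CRL1506. Ifna2 was at 2.52 and 1.12, and whether its probe also binds RNA of related interferon-α genes was not tested. Ifnar1, a chain of the type I interferon receptor, was at 0.46 with CRL1505 and 1.37 with CRL1506. The medians of the list were 0.48 and 0.01.

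Type I interferon-stimulated genes formed the longest list. With CRL1505, 23 of 25 were at least 2-fold higher and 0 lower (median 1.73), beside 9.9% and 8.41% of all genes, and under spike-in scaling 16 were. Ifit2 was at 2.82, Ifit3 at 2.71, Cmpk2 at 2.57 and Rsad2 at 2.36. With CRL1506, 7 of 25 were at least 2-fold higher and 0 lower (median 0.63), beside 5.67% and 3.53% of all genes, and the same genes were at 0.94, 1.26, 1.15 and 1.11. For CRL1506 the count ranged from 3 to 11 over the other settings. Between the strains, 15 of 25 were at least 2-fold higher with CRL1505 (median 1.18), beside 8.96% of all genes, 6 under spike-in scaling and 21 under the shift by the median.

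Genes known to depend on Irf1 were higher with CRL1505 although Irf1 itself was at 0.14. There, 11 of 14 compared were at least 2-fold higher and 0 lower (median 1.79), beside 9.9% and 8.41% of all genes, and 9 were higher under spike-in scaling. Cd274, which encodes the checkpoint ligand PD-L1, was at 3.74, Nos2, the inducible nitric oxide synthase, at 3.40, the guanylate-binding protein gene Gbp5 at 3.31 and Nlrc5, an activator of MHC class I genes, at 3.03. With CRL1506, 2 of 15 were at least 2-fold higher and 1 lower (median 0.08), beside 5.67% and 3.53% of all genes, with Cd274 at 1.48, Nos2 at -0.70, Gbp5 at 0.16 and Nlrc5 at 1.34, and Cxcl9 was the lower gene at -1.27. Between the strains 11 of 14 were at least 2-fold higher with CRL1505 (median 1.73), beside 8.96% of all genes. Several of these genes also respond to NF-kB, so the list is not specific to Irf1.

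Of the cytokine genes linked to Irf5, Il6 was at 4.25 with CRL1505 and 2.35 with CRL1506, and was the 1 of 4 compared that passed 2-fold with each strain, beside 9.9% and 5.67% of all genes higher. Il23a was at 0.94 and -0.31, Il12b at -0.70 and -0.85, and Tnf at 0.15 and -0.39, while Il12a did not reach the detection limit. The medians were 0.54 and -0.35, beside an Irf5 ratio of 0.35 and -0.86 on its brighter probe and of 1.40 and 0.19 on its dimmer one.

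Of 5 macrophage genes linked to Irf8 and PU.1, 3 were at least 2-fold higher with CRL1505 (median 1.10), beside 9.9% of all genes, and 0 with CRL1506 (median -0.25), beside 5.67%. They were Il18 at 1.51, the NADPH oxidase subunit gene Cybb at 1.12 and Klf4 at 1.10, whereas Irf8 was at -0.29. Under spike-in scaling 1 gene of the list was at least 2-fold higher with CRL1505. Of the genes linked to Irf4, Retnla was well above background with CRL1505 alone, at least 7.28-fold above LPS, and Chil3 was at 1.22 with CRL1505 and -0.73 with CRL1506. Pparg was well above background with LPS and not with CRL1505, at least 3.23-fold lower. Arg1, like Irf4 itself, did not reach the detection limit on the 3 arrays.

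**Figure D4:**
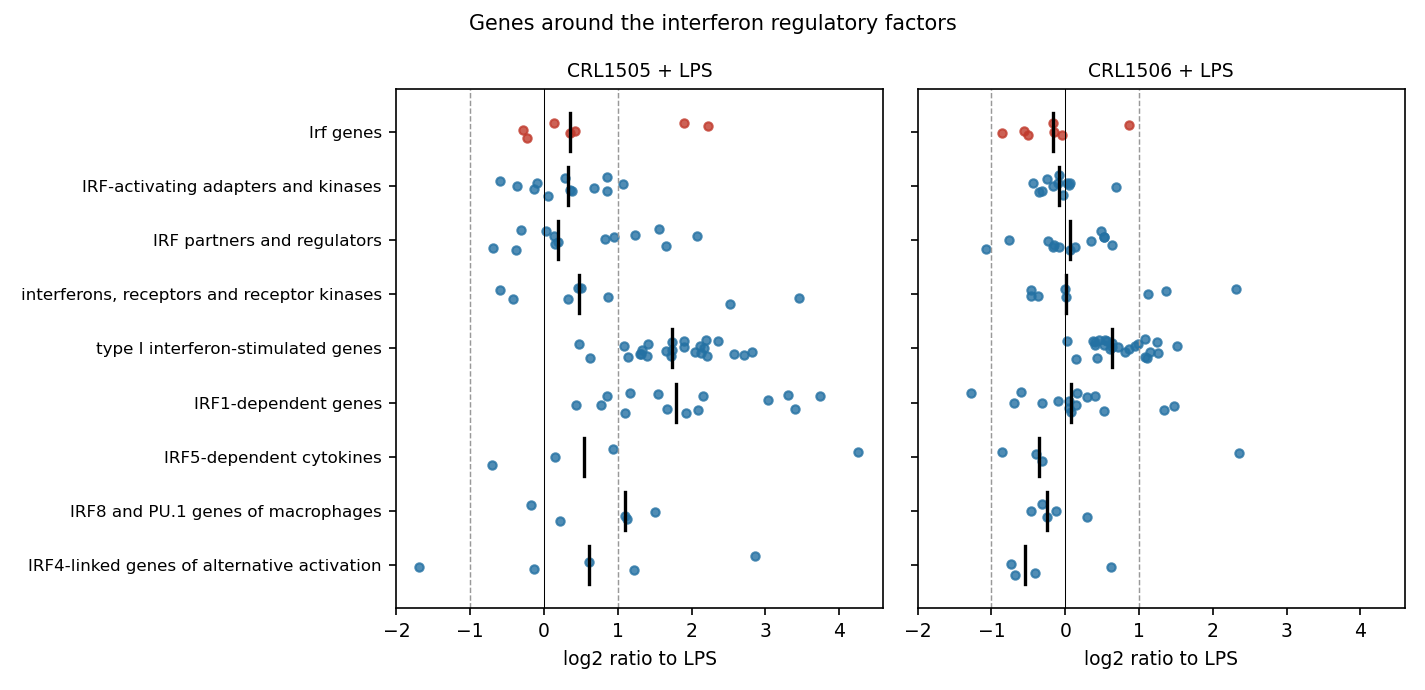
Log2 ratio to LPS of each gene compared (points) and the median of each list (bars), for CRL1505 + LPS and CRL1506 + LPS. Dashed lines mark 2-fold, red points are the Irf genes, and a gene that was not well above background on 1 side is drawn at its bound. The interferon-stimulated genes had a median of 1.73 with CRL1505 and 0.63 with CRL1506, and the Irf genes of 0.35 and -0.16. Both panels share the LPS array.

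The genes whose pair of ratios to LPS was closest to that of each changed factor were also sought among 13111 genes well above background on the 3 arrays. For Irf7 (1.90 and 0.87) they were Apol9b (1.93 and 0.86), B3gnt2 (1.94 and 0.82) and LOC102637854 (1.84 and 0.84), at distances of 0.03, 0.064 and 0.067 log2 units, and 27 genes lay within the usual spread between probes. For the brighter Irf2 probe (2.22 and -0.05) they were Anp32a (2.25 and -0.12), Tbc1d4 (2.14 and -0.02) and Igtp (2.29 and 0.02), at 0.082, 0.091 and 0.094, with 8 genes within that spread. The likeness rests on 2 ratios that share 1 array.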

How the data were processed

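RNA of RAW 264.7 cells was hybridised to 1-colour (Cy3) 60-base Agilent mouse arrays, 1 for each of 3 conditions. The authors deposited the scanner output of Feature Extraction (version 12.0.3.1 in the files), in which the processed signal is a background-subtracted intensity without normalization between arrays, and a table of log2 values normalized between arrays (columns with a median of 6.77 each). Its setting is not given in the sources used here. From each log2 processed signal the log2 of the array's own 75th percentile over gene spots was subtracted, a signal of 743, 517 and 698 for LPS, CRL1505 + LPS and CRL1506 + LPS. Outlier spots were left out and repeated spots averaged. A gene was represented by its brightest probe. A side not well above background was set to the higher of its own value and the lowest value well above background. This makes the ratio a bound. Genes dim on both sides were left out, and so were genes whose brighter side did not exceed the value set for the dim side. A 2-fold threshold was used, since the t-test of the methods needs replicates.

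The number of arrays limits the precision. Between repeated spots the log2 ratio had a median SD of 0.048 for CRL1505 with LPS, 0.043 for CRL1506 with LPS and 0.047 for CRL1505 with CRL1506, and between probes of a gene one of 0.228, 0.215 and 0.323. These describe single hybridisations and no biological variation. The members and gene lists were chosen with earlier results of these data known. The text names all 8 members, 2 to 4 genes of each list with the largest ratios to LPS and others of the lists, and the 3 nearest genes to Irf2 and Irf7. Alternatives were other scalings (the median, quantile, cyclic loess, detected probes, spike-in probes), normexp with an offset of 50, the deposited log2 table, outlier spots kept, uneven spots left out, other filters on dim probes, the mean over probes, the dimmer probe, and thresholds of 1.5-fold and 4-fold. The ratio and count steps were tested on simulated data with 4-fold changes in bright genes and noise below the spread between probes. That run checks the computing steps and not the precision of these arrays. Python 3.11.15, pandas 2.3.3, NumPy 2.4.6, SciPy 1.17.1, R 4.3.3 and limma 3.58.1 were used. Results for some genes of the lists are not reported here.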

Additional observations from a re-analysis of the deposited data

Results flagged for a closer look

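On the brighter probes, Irf1, Irf2, Irf5 and Irf9 had a ratio to LPS above 0 with CRL1505 and below 0 with CRL1506. The LPS array is shared, the difference was not tested, and the share of all genes with such signs is not given here. Irf1 was at 0.14 and -0.51, Irf2 at 2.22 and -0.05, Irf5 at 0.35 and -0.86, and Irf9 at 0.42 and -0.16. The CRL1506 value of Irf2 was 0.04 with the percentile over detected probes. The CRL1505 value of Irf1 was within the usual spread between probes, 0.228. So were the CRL1506 values of Irf2 and Irf9, beside a spread of 0.215. The CRL1505 values of Irf1, Irf5 and Irf9 fell below 0 under spike-in scaling, at -0.37, -0.16 and -0.08. The dimmer probes of Irf2 and Irf5 were above 0 with both strains, at 0.65 and 2.43 for Irf2 and at 1.40 and 0.19 for Irf5.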

How the results depend on the processing

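Of 273 values of single Irf genes under other settings, 225 moved by less than the spread between probes, 47 moved by more and 1 reversed, the Irf2 ratio of CRL1505 to CRL1506, which was -1.78 with the dimmer probe. Some settings could not move these values, so the 225 overstate how stable they were. No Irf probe had an outlier or uneven spot to keep or leave out. The filters on dim probes did not touch the 7 genes compared, which were well above background on the 3 arrays. The 2 genes counted as higher for CRL1505 against LPS became 1 at 4-fold, and the median of the 7 Irf genes, 0.35, became 0.65 with the shift by the median and -0.16 with spike-in scaling. For CRL1506 against LPS the count of higher genes was 1 in place of 0 under quantile normalization, cyclic loess, the deposited log2 table, the mean over probes and a 1.5-fold threshold, and the count of lower genes was 1 under the shift by the median and at 1.5-fold. For CRL1505 against CRL1506 the 3 higher genes became 5 with the shift by the median and 1 with quantile normalization, spike-in scaling and 4-fold. They became 2 with cyclic loess, the percentile over detected probes, normexp, the deposited table and the mean over probes. The median of the 7, 0.65, became 1.15 with the shift by the median, 0.25 with spike-in scaling and 0.33 with the deposited table. Of the counts, 72 of 84 were within 1.5 times the reported ones, the changes from 3 to 2 higher genes included. The other medians moved less than the spread between probes (31 of 36). The settings for outlier and uneven spots could move neither counts nor medians, so the 72 and the 31 also overstate stability. Over the genes well above background on both arrays, the median for CRL1505 against LPS was 0.06, but 0.35 with the shift by the median and -0.45 with spike-in scaling, and the share of 2-fold calls that were higher was 54.1%, 76.1% and 20.1%. For CRL1505 against CRL1506 that share was 54.6%, 89.1% and 23.0%, and for CRL1506 against LPS 61.6%, 43.4% and 52.8%. The cause was not tested. No paired analysis was possible because each condition had 1 array, and leaving out a replicate was not possible for the same reason.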
